A study of Rattus norvegicus with 12 samples.

Results

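The 6 wild-type rat embryos described here were 6 of 12 embryos profiled at embryonic day 14, chosen by the genotype given in the labels. The other 6 carried the BACHD transgene, which encodes full-length human mutant huntingtin, in homozygous form, and were not used. The wild-type embryos received no agent of their own, but the 3 dams, all dissected on 1 day, were anaesthetised with ketamine and xylazine. The rat strain, and the dam and sex of each embryo, are not given in the labels. The medial and lateral ganglionic eminences of each embryo were pooled, the meninges were removed and the tissue went into RNAlater. Each Affymetrix Rat Gene ST array therefore held the RNA of 1 embryo and of all its cells, with no separation of the medial from the lateral part. The spread between arrays includes that of the dissection and of the labelling as well as that of the embryos.

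The ganglionic eminences are swellings of the ventral forebrain, the subpallium, in which dividing radial glia produce neurons that use GABA as transmitter. The lateral eminence is known as the source of the projection neurons of the striatum, and the medial eminence as the source of many cortical interneurons and of pallidal and cholinergic neurons. The pallium, the dorsal neighbour that forms the cortex, produces neurons that use glutamate.

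Levels are log2 intensities as deposited, so 1 unit is 2-fold. One value was kept for each of 14506 genes, that of the probe set with the highest mean over the 6 embryos among 15310 probe sets annotated with exactly 1 gene. Another 323 probe sets had several genes and 13581 had none. Probes differ in how strongly they bind, so a rank among genes is a rank of brightness and not an order of mRNA abundance. The 6 arrays had medians between 7.67 and 7.71 over all probe sets. Before any result, wild type 1 and 2 stood apart from the other 4 arrays, as described under the variation between embryos, and the main ranges and SDs that rest on them are given with and without them.

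Background was read from 53 olfactory receptor genes, receptors of the nasal epithelium that are taken here not to be used in this tissue. Their levels had a median of 5.18 and lay between 3.14 and 7.33. Their 95th percentile, 6.78, was used as the threshold, and 10534 genes, 72.6% of all genes measured, lay above it. Every count of list members above background below is to be read against that share. Of 55 lists with at least 4 measured genes, 34 had at least 90% of their members above background. The threshold cut through a continuous range of levels: Tns4 was just above it at 6.78 ± 0.062 and Ffar2 just below it at 6.78 ± 0.062 (SD, n = 6, as for every mean below). A gene under the threshold is called not above background, which does not show that its RNA was absent. The median level of all genes was 8.50, and the levels ran from 2.38 to 13.87.

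**Figure D1:**
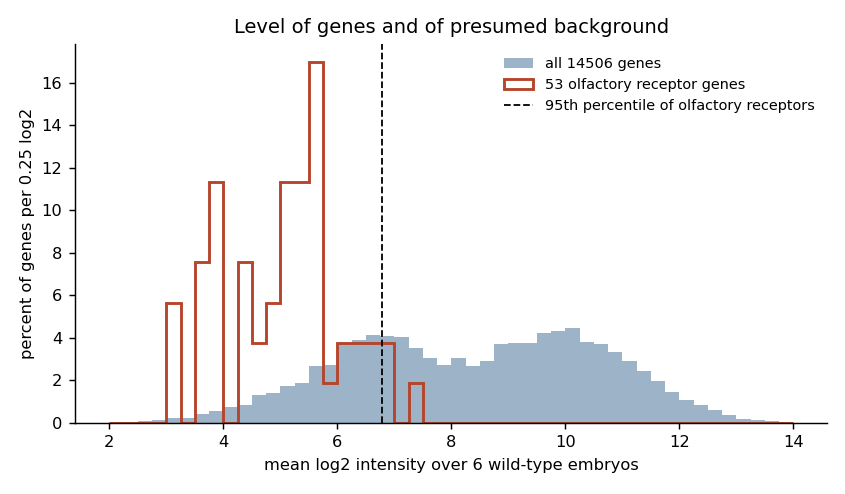
The horizontal axis is the mean log2 intensity over the 6 wild-type embryos and the vertical axis the percent of genes per step of 0.25. Filled bars are all 14506 genes and the outline is the 53 olfactory receptor genes, most of which lie left of the dashed threshold at 6.78.

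The brightest genes were those of the cytoskeleton, protein synthesis and chromatin, together with embryonic haemoglobin. Actb, cytoplasmic beta-actin, ranked 1st with 13.87 ± 0.018. The tubulin genes Tuba1b, Tubb5 and Tubb2b, subunits of microtubules, were also among the 20 brightest, at 13.72, 13.51 and 13.51. Hbe1, an embryonic beta-type globin of red blood cells, ranked 2nd with 13.82 ± 0.036. Rps4x and Rps29, proteins of the small ribosomal subunit, were at 13.73 and 13.68, and Eef1a1, which delivers transfer RNA to the ribosome, was at 13.56. Hist2h3c2, Hist1h2bq and Hist1h2an, replication-dependent histones, were at 13.69, 13.61 and 13.45. Vim, the intermediate filament of radial glia, was at 13.48 ± 0.036 and Dpysl2, a tubulin-binding protein of growing axons, at 13.49 ± 0.015. Nnat, neuronatin, an imprinted gene of developing brain, was at 13.45 ± 0.043. Actin, tubulin, histone, globin and ribosomal protein genes have near-identical copies or pseudogenes, and a probe set named for one of them may read others.

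Whole classes stood high with these genes. Of 71 cytosolic ribosomal protein genes, 70 were above background and 59 were in the brightest decile of all genes, with a median level of 12.21. Of 71 genes of the respiratory chain and ATP synthase, all were above background and 42 were in the brightest decile. The 17 histone and high-mobility group genes had a median of 12.24, and 11 of them were in the brightest decile.

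The genes that mark the subpallium, the tissue named in the labels, were bright. Of 7 genes shared by subpallial GABAergic cells, all were above background, and their median level exceeded that of 82.6% of all genes. Gad2 and Gad1 encode the enzymes that make GABA. Gad2 was at 11.83, 11.76, 11.81, 11.83, 11.93 and 11.96 in wild type 1 to 6, and Gad1 was at 10.61 ± 0.078. The lowest Gad2 value was that of wild type 2 and the highest that of wild type 6, which differed by 1.15-fold. Slc32a1, which loads GABA into synaptic vesicles, was lower at 9.90 ± 0.11. Gsx2, a homeodomain factor of lateral eminence progenitors, was at 10.38 ± 0.082, and Vax1, a homeodomain factor of the ventral forebrain, at 9.93 ± 0.079.

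The Dlx genes encode homeodomain factors that act in the differentiation and migration of these GABAergic neurons. Dlx1 was at 11.89, 11.84, 11.79, 11.84, 11.84 and 11.81 in wild type 1 to 6, and Dlx5 was at 12.03, 11.98, 11.44, 11.64, 11.73 and 11.66. Dlx1 therefore hardly varied, whereas Dlx5 differed by 1.5-fold between wild type 1 and wild type 3, and by 1.22-fold among the 4 embryos without wild type 1 and 2. The other measured members, Dlx4 and Dlx3, were close to background at 7.09 ± 0.14 and 6.98 ± 0.11. Dlx2 and Dlx6 were not analysed here.

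Factors of both parts of the eminence were above background. Of 12 lateral eminence and striatal genes, 11 were above background, 91.7% against 72.6% of all genes. Of 16 medial eminence and interneuron genes all were. The lists of diencephalon, hypothalamus and eye, at 93.3%, and of pericytes and smooth muscle, at 91.7%, stood as high. The share alone therefore does not mark the eminences. Meis2, a homeodomain factor of the lateral eminence, was among the brightest transcription factors at 12.79 ± 0.043, followed by Pbx3, a partner of Meis proteins, at 12.29 ± 0.028. Ebf1, a factor of developing striatal neurons, was at 11.42 ± 0.075, Isl1, a LIM-homeodomain factor of the striatonigral lineage, at 11.05 ± 0.10, and Foxp1, a forkhead factor of striatal neurons, at 10.85 ± 0.075. Ikzf1, a zinc-finger factor of some striatal neurons, was the 1 lateral member not above background, at 6.46 ± 0.10. On the medial side, Nkx2-1, the homeodomain factor that specifies the medial eminence, was at 10.75 ± 0.097. Its targets Lhx6 and Lhx8, LIM-homeodomain factors of interneurons and of cholinergic neurons, were at 10.69 ± 0.055 and 10.72 ± 0.065. Shh, the secreted ventralising signal, was at 9.02 ± 0.064. Zeb2 and Satb1, factors of migrating and maturing interneurons, were at 11.52 ± 0.033 and 11.46 ± 0.055.

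The brightest medial gene, Sst, the neuropeptide somatostatin, was also among the most variable of its list. It stood at 11.93, 12.05, 11.23, 11.46, 11.44 and 11.45 in wild type 1 to 6. Npy, neuropeptide Y, stood at 10.47, 10.48, 9.70, 9.82, 10.03 and 10.04. Both peptides were highest in wild type 1 and 2, and the values of these embryos did not overlap those of the other 4. The range fell from 1.76-fold to 1.17-fold for Sst, and from 1.71-fold to 1.27-fold for Npy, without these embryos. Of 8 genes linked to the caudal eminence, which the labels do not name as dissected, 7 were above background, or 87.5%. Nr2f2 and Nr2f1, orphan nuclear receptors that are strong caudally, were at 11.35 ± 0.15 and 11.24 ± 0.062, and Prox1, a homeodomain factor, at 9.42 ± 0.070. Vip, a peptide of mature interneurons, was not above background at 5.05 ± 0.15.

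Genes of radial glia and of dividing cells were bright for the most part. All 15 radial glia and stem cell genes were above background, and their median level, 11.18, exceeded that of 90.1% of all genes. Sox2, the factor that maintains neural progenitors, was at 11.75 ± 0.13 and Nes, nestin, at 10.91 ± 0.078. The Notch effectors Hes5 and Hes1 differed, with Hes5 at 11.36 ± 0.094 and Hes1 at 8.40 ± 0.053. Fabp7, a fatty acid binding protein of radial glia, varied most within the list and stood at 10.98, 11.15, 11.34, 11.52, 10.86 and 11.43. The highest Fabp7 value was that of wild type 4 and the lowest that of wild type 5. Of the Id genes, inhibitors of basic helix-loop-helix factors, Id4 was at 11.54 ± 0.062, Id2 at 9.96 ± 0.12, Id1 at 8.30 ± 0.048 and Id3 at 8.26 ± 0.12.

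All 32 S-phase genes and 36 of 37 genes of G2 and M phase were above background, against 72.6% of all genes. Rrm2 and Rrm1, subunits of the ribonucleotide reductase that makes deoxynucleotides, were at 12.69 ± 0.052 and 12.53 ± 0.028, and Pcna, the replication clamp, at 12.15 ± 0.058. Top2a, the topoisomerase that untangles sister chromosomes, was at 12.17 ± 0.030 and Cdc20, an activator of the anaphase-promoting complex, at 12.12 ± 0.12. Cks2, a partner of cyclin-dependent kinases, was the 1 mitotic member not above background, at 6.66 ± 0.078. Cdk4, the kinase of G1, was at 13.30 ± 0.028 and its partner Ccnd2, cyclin D2, at 12.84 ± 0.022. The inhibitor Cdkn2a, which is kept silent in many dividing progenitors, was not above background at 6.27 ± 0.12.

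Genes of newborn neurons were also bright for the most part. Of 37 genes of early postmitotic neurons, 35 were above background, 94.6% against 72.6% of all genes. In the brightest decile of all genes were 24 of them. Map1b, a microtubule-associated protein of growing axons, was at 13.34 ± 0.029, Stmn1, a tubulin-binding protein, at 13.21 ± 0.070, and Tubb3, neuronal beta-tubulin, at 13.03 ± 0.064. Nefh, the heavy neurofilament subunit of mature axons, was the lowest of the list at 5.95 ± 0.11 and not above background. Neurogenic factors were above background in 9 of 9 cases, led by Sox11 at 13.24 ± 0.055 and Sox4 at 11.87 ± 0.044, factors of neurons leaving the cell cycle.

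Genes of mature striatal projection neurons were dimmer. Of 21 such genes 19 were above background, but the median level was 7.96, which exceeded that of only 43.9% of all genes, and none was in the brightest decile. Pde10a, the striatal phosphodiesterase, was the brightest at 9.76 ± 0.091, followed by Ptpn5, the striatal phosphatase STEP, at 9.63 ± 0.095, and Tac1, the precursor of substance P, at 9.42 ± 0.12. Among members chosen after their values were seen, the dopamine receptor gene Drd2 was at 7.96 ± 0.14 and Ppp1r1b, the phosphoprotein DARPP-32, at 7.72 ± 0.090. The other dopamine receptor gene of these neurons, Drd1, was not above background at 6.61 ± 0.076. Scn4b, a sodium channel subunit, was the lowest at 6.58 ± 0.018. Of 30 GABA and glutamate receptor genes 27 were above background, from Gabbr1, a subunit of the GABA-B receptor, at 11.77 ± 0.039 down to Grik1, a kainate receptor subunit, at 6.08 ± 0.10.

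Markers of glia were at low levels. All 9 oligodendrocyte precursor genes were above background with a median of 7.63, the brightest being the myelin enzyme gene Cnp at 9.44 ± 0.051. Of 10 astrocyte genes 7 were above background, 70.0% against 72.6% of all genes, so the count does not set them apart, with Gja1, a gap junction protein also used by radial glia, at 9.80 ± 0.12, and Slc1a2, a glutamate transporter, at 10.01 ± 0.12. Gfap, the filament of mature astrocytes, was not above background at 6.51 ± 0.075.

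Markers of cell types other than those of the eminences gave different shares above background. In bulk tissue, fewer cells of a type and less RNA per cell cannot be told apart, so the following values do not count cells. Of 15 genes of the pallial glutamatergic lineage all were above background, with a median level of 9.996. This list shares Pax6 with radial glia, and Lhx2, Slc17a6 and Reln are also used outside the pallium. Neurod6, Neurod1 and Neurod2, basic helix-loop-helix factors of cortical excitatory neurons, were at 10.29 ± 0.28, 10.23 ± 0.35 and 9.996 ± 0.24. Emx1, Eomes and Tbr1, defining pallial factors, were not analysed here.

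All 16 globin and erythroid genes were above background, including Hbg1, a gamma-type globin, at 12.35 ± 0.19 and Tfrc, the transferrin receptor, at 10.70 ± 0.055. Of 24 endothelial genes 22 were above background, led by Slc2a1, the glucose transporter of the blood-brain barrier, at 12.10 ± 0.064. Slc2a1 is also used by other cells, and Kdr, the VEGF receptor, chosen after its values were seen, was at 9.08 ± 0.062. Of 21 microglia and macrophage genes 13 were above background, 61.9% and so below the 72.6% of all genes, led by Cx3cr1, the fractalkine receptor, at 8.79 ± 0.13 and Csf1r, the receptor that microglia need to survive, at 8.47 ± 0.056. Of 16 genes of meninges and cranial mesenchyme 10 were above background, 62.5% and also below that of all genes. The list ran from Crabp2, a retinoic acid binding protein, at 10.82 down to Lum, the collagen-binding protein lumican, at 3.88 ± 0.044.

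Markers of other brain regions had low median levels, between 6.55 and 7.17 in 4 lists. Of 15 genes of diencephalon, hypothalamus and eye 14 were above background, 93.3%, but with a median of 7.17 and a highest level of 10.14. Of 19 choroid plexus and roof plate genes 10 were above background, and Ttr, transthyretin, the most abundant product of the choroid plexus, was not, at 6.08 ± 0.083 (chosen after its values were seen). Of 20 midbrain and hindbrain genes 11 were above background, and the brightest by far was Th, tyrosine hydroxylase, at 10.34 ± 0.11. Of 22 Hox genes, the factors of hindbrain and spinal cord, 8 were above background, the highest being Hoxb7 at 8.17 ± 0.094. This share, 36.4%, was below the 72.6% of all genes, as were 52.6% for the choroid plexus list and 55.0% for midbrain and hindbrain. Of 22 genes of liver, muscle, skin and gut 10 were above background, or 45.5%, with a highest level of 8.62. A level over the threshold on these arrays, even up to 8.62, is therefore no sure sign of expression.

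**Figure D2:**
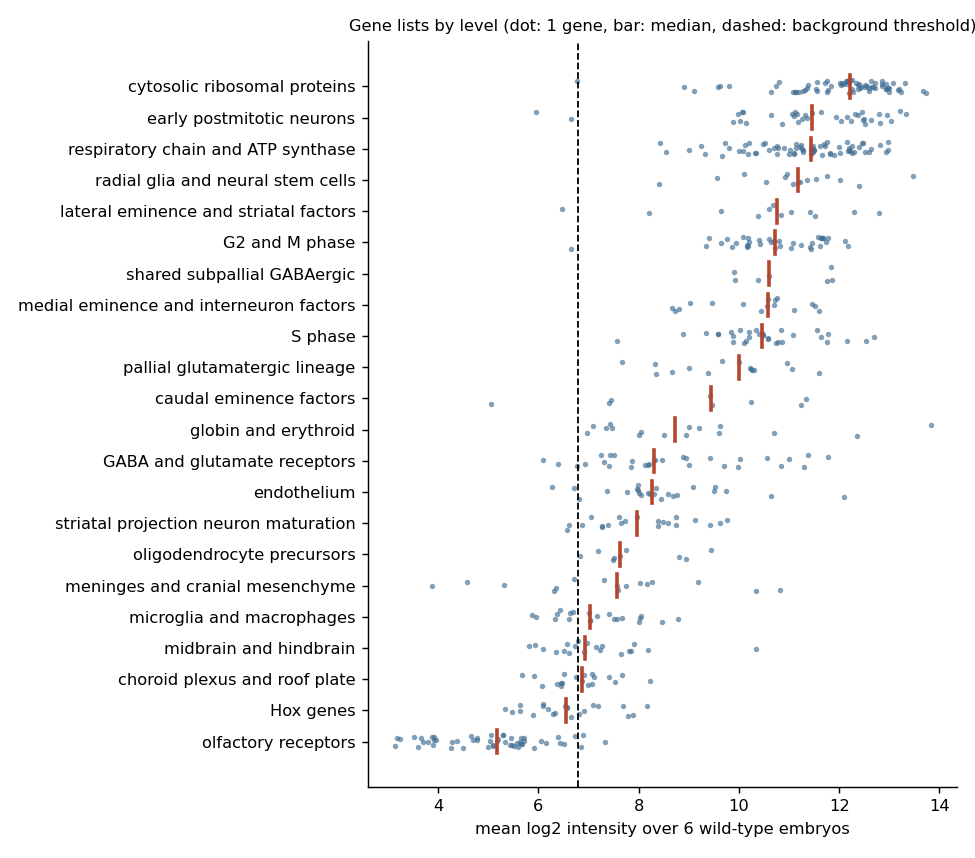
Each dot is 1 gene at its mean log2 intensity over the 6 wild-type embryos, grouped by list on the vertical axis, with the list median as a bar and the background threshold of 6.78 as a dashed line. The lists of early neurons, radial glia, cell division and eminence factors lie right of most markers of glia, blood vessels and other brain regions.

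Brightness went along with the letters of the promoter. Promoters were taken as 250 bases before and 50 bases after the start of the gene from RefSeq, build GRCr8, and 11951 of the 14506 genes were matched by gene number while 2555 were not. The number of CG pairs in these 300 bases had a median of 2 in the dimmest decile of genes and 25 in the brightest. The median was 16 in all 11951 matched genes and 7 in all 27457 promoters of the table. CG reads the same on both strands. Across genes, which are not independent replicates and share the arrays, the level and the CG count had a Spearman rho of 0.615. The rise lay mostly below the middle of the range, with medians of 2, 4, 6, 11 and 19 in the first 5 deciles and 21 to 25 in the others. The letters TATAAA, counted on either strand, went the other way. They were found in 35.5% of promoters in the dimmest decile and in 7.7% in the brightest, with the lowest share, 4.44%, in decile 9. The share was 11.7% in all matched genes and 14.3% in all promoters of the table. Several dim lists went against the pattern. The 11 Hox genes with a promoter had a median of 24 CG pairs although most were not above background. The 14 Wnt ligands with a promoter had 29 at a median level of 7.25. The 17 midbrain and hindbrain genes had 21 at 6.96. Such matches describe letters in a fixed window and do not show that a factor binds there.

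Gapdh, a glycolytic enzyme and the 4th brightest gene at 13.77 ± 0.015, Dlx1, and Olr1505, the olfactory receptor nearest to the median of its list at 5.18 ± 0.13, show the range. Capitals mark the CG pairs, of which they hold 18, 27 and 2. The windows, each read along its gene from 5′ to 3′, are chr4:159652418-159652717 on the minus strand, chr3:76763614-76763913 on the plus strand and chr10:59335774-59336073 on the plus strand.
Gapdh: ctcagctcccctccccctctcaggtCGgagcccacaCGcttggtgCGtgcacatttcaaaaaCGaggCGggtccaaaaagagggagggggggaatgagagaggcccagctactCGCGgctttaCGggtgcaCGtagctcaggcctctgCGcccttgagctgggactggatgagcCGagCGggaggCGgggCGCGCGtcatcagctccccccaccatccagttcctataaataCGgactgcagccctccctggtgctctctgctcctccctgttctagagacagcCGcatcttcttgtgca
Dlx1: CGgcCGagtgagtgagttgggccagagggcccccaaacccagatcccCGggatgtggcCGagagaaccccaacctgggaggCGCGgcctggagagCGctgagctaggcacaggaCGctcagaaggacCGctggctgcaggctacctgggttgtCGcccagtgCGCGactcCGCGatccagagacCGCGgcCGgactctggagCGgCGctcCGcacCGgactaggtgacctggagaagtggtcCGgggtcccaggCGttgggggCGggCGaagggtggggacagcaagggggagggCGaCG
Olr1505: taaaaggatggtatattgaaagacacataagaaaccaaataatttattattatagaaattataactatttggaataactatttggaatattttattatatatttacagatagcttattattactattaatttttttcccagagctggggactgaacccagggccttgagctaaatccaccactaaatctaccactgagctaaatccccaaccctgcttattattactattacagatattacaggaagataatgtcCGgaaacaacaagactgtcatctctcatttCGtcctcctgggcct
The Gapdh promoter also holds TATAAA, beginning 26 bases before the start, and the CG pairs of Dlx1 are spread over the whole window while those of Olr1505 lie after the start.

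**Figure D3:**
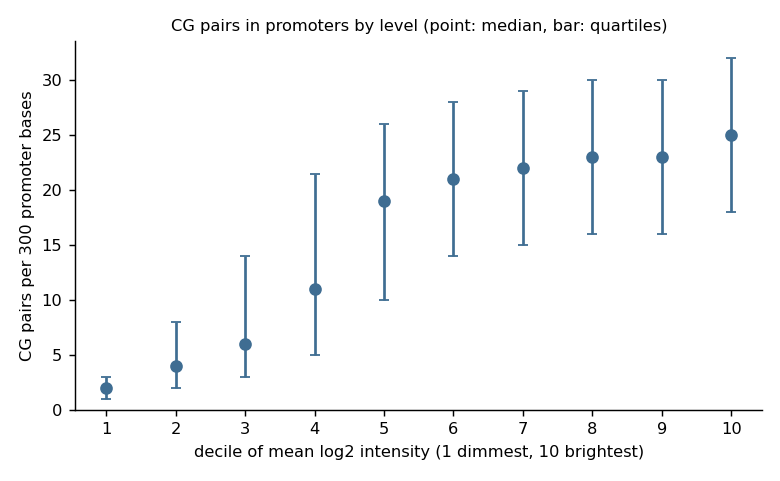
The horizontal axis is the decile of genes by mean log2 intensity in the 6 wild-type embryos and the vertical axis the number of CG pairs in the 300 promoter bases; points are medians and bars run from the lower to the upper quartile. The median rises from 2 to 25.

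The letters CCAAT, counted on either strand as CCAAT or ATTGG, did not go along with brightness in this way, but were frequent in some lists. They were found in 26 of the 33 G2 and M phase genes with a promoter, 78.8%, against 38.3% of all 11951 genes and 37.7% of all promoters of the table. In the 120 bases just before the start they were found in 22 of these 33 genes, 66.7%, against 21.97% of all 11951. S-phase genes held them in 15 of 29 cases, 51.7%. The letters were not particular to dividing cells, since they were found in 71.4% of 35 RT1 histocompatibility genes and 66.7% of 12 globin and erythroid genes. Of the 17 histone and high-mobility group genes, 15 held them in the 300 bases, while only 13 of 59 ribosomal protein genes did, although the medians of both classes were close, 12.24 and 12.21. The CCAAT letters are known from cell cycle promoters, where the factor NF-Y binds them. The brightest G2 and M phase genes with the letters in those 120 bases were Top2a, Cdc20 and Plk1, the mitotic Polo-like kinase, at 11.67 ± 0.033, the last named because of its promoter. Their last 120 bases before the start are shown with the letters in capitals, from chr10:84473094-84473213 and chr5:137255800-137255919, both on the minus strand, and from chr1:186147538-186147657 on the plus strand.
Top2a: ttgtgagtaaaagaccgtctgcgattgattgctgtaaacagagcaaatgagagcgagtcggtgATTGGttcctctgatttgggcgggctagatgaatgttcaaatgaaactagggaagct
Cdc20: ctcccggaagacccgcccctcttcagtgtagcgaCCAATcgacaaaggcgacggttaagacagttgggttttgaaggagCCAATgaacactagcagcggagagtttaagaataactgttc
Plk1: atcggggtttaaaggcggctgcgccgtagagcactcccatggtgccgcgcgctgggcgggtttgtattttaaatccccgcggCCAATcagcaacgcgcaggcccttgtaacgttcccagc
Top2a and Plk1 hold 1 match each in these bases and Cdc20 holds 2.

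Signalling pathways differed in how many of their genes were above background. All 25 Notch pathway genes were above background, led by the atypical ligands Dlk1 at 11.81 ± 0.087 and Dner at 11.64 ± 0.017. Of 10 Hedgehog pathway genes 9 were above background, with the transducer Smo at 10.90 ± 0.12 and the repressor Gli3 at 10.67 ± 0.11. Of 28 Wnt receptors and effectors 27 were above background, or 96.4%. Of 16 retinoic acid genes 12 were above background, of 17 Wnt ligands 13 and of 27 Fgf ligands and receptors 19. These shares, between 70.4% and 76.5%, were near the 72.6% of all genes. The binding proteins Crabp1 and Crabp2 were bright, at 11.64 ± 0.25 and 10.82 ± 0.082, whereas the synthetic enzyme Aldh1a1 was the lowest at 5.17 ± 0.17. Of 33 axon guidance genes 32 were above background, led by the semaphorin receptor Plxna2 at 12.06 ± 0.021.

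Htt, the gene for huntingtin whose human mutant form the other embryos of the study carry, was at 9.77, 9.98, 10.07, 10.05, 10.02 and 9.90 in wild type 1 to 6. Its mean of 9.97 ± 0.11 exceeded that of 72.1% of all genes. The lowest and highest embryo differed by 1.23-fold, or by 1.12-fold without wild type 1 and 2. Of 20 genes for huntingtin and its partners 19 were above background. Bdnf, the growth factor that huntingtin is known to promote in cortical neurons, was not, at 5.83 ± 0.14, while its receptor gene Ntrk2, chosen after its values were seen, was at 10.95 ± 0.029.

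The embryos differed little. The SD over the 6 embryos had a median of 0.0815, or 1.06-fold, among the 10534 genes above background, with quartiles of 0.0558 and 0.116. The highest and the lowest embryo differed by a median of 1.16-fold. Only 15 genes, 0.142% of the genes above background, ranged over 2-fold between embryos, and 82 had an SD over 0.3. The SD fell with level, from a median of 0.128 in the dimmest decile of all genes to 0.0577 in the brightest. The 10 steadiest genes had an SD of 0.012 or less. Hspa4, a heat shock protein of the Hsp110 family, lay between 11.85 and 11.87 in the 6 embryos. Idh2, mitochondrial isocitrate dehydrogenase, at 11.15 ± 0.0084, and Matr3, a nuclear matrix protein, at 12.41 ± 0.012, were also among them.

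The genes that varied most came in several patterns. Nqo2, a quinone reductase, had the largest SD and stood at 8.30, 9.02, 8.004, 7.11, 7.86 and 7.81 in wild type 1 to 6, a 3.74-fold range that was 1.85-fold without wild type 1 and 2. Its highest value was that of wild type 2 and its lowest that of wild type 4. Retsat, retinol saturase, stood at 10.46, 8.99, 10.30, 10.40, 9.85 and 10.17, with wild type 2 alone far below the others and a range of 2.76-fold, or 1.46-fold without wild type 1 and 2. Terc, the RNA of telomerase, stood at 12.03, 11.95, 11.21, 10.83, 10.72 and 11.44, with wild type 1 and 2 above the other 4. Without them the Terc range fell from 2.47-fold to 1.65-fold. Prps1, an X-linked gene for a phosphoribosyl pyrophosphate synthetase, stood at 12.08, 12.13, 11.94, 11.98, 11.08 and 11.01. Wild type 5 and 6 lay below the other 4 embryos without overlap, and the whole range was 2.17-fold, or 1.96-fold without wild type 1 and 2. Eif2s3, an X-linked translation factor gene with a copy on the Y chromosome, stood at 12.90, 12.70, 12.82, 12.54, 12.51 and 12.52. The Y-linked genes Sry, the testis-determining factor, and Tspy1, a testis protein, were not above background, at 6.70 ± 0.074 and 6.08 ± 0.094, and gave no order of the embryos.

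**Figure D4:**
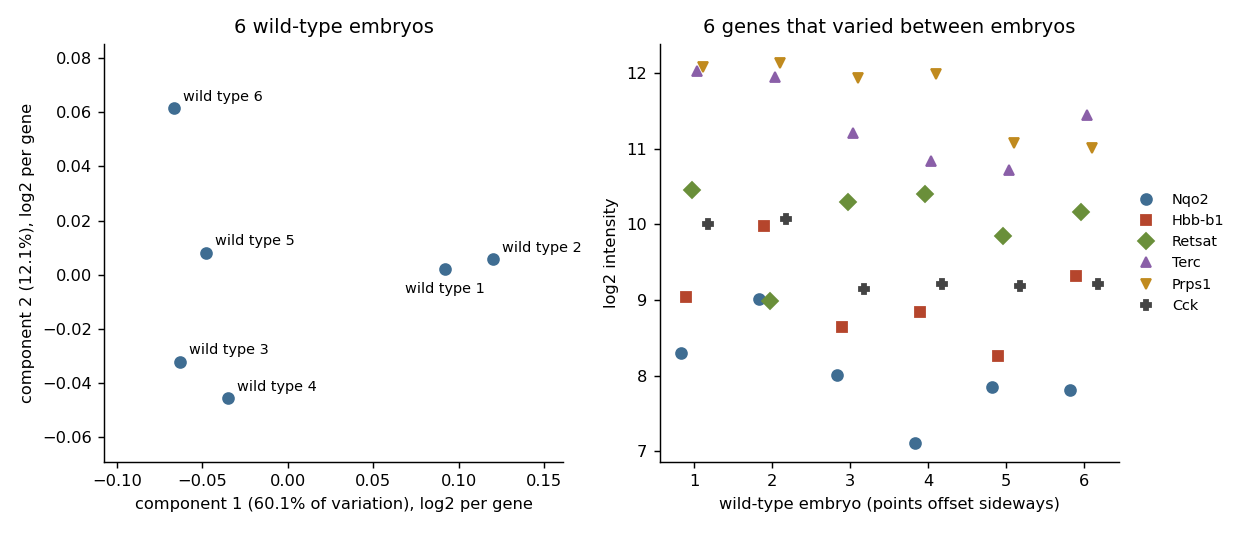
The left plot places the 6 wild-type embryos by their scores on components 1 and 2 of the genes above background, in log2 per gene, with 60.1% and 12.1% of the variation; wild type 1 and 2 lie apart on the right. The right plot gives the log2 intensity of 6 variable genes in each embryo, with Prps1 low in wild type 5 and 6 and Cck high in wild type 1 and 2.

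Most of the variation was shared and set wild type 1 and 2 apart. The first principal component of the genes above background held 60.1% of the variation, with scores of 0.092 and 0.12 for wild type 1 and 2 and between -0.066 and -0.035 for the others. These 2 embryos had both highest values in 28.8% of the genes and both lowest values in 18.01%. Among the 20 most variable genes they did so in 14 and 3 cases. The SD of the difference between wild type 1 and 2 over genes was 0.135, that between any 2 of the other 4 lay between 0.121 and 0.142, and that across lay between 0.163 and 0.210. Cck, the peptide cholecystokinin, had a lowest value of 9.15, a median of 9.21 and a highest of 10.08, with wild type 1 and 2 above all others. Its range was 1.90-fold with these embryos and 1.05-fold without them. Rab33a, a small GTPase, Fibp, which binds a fibroblast growth factor, Tbcb, a tubulin-folding factor, Glra2, a glycine receptor subunit, and Slc38a5, a glutamine transporter, also had their 2 highest values in wild type 1 and 2, while Gpatch11 and Unc119b had their 2 lowest there. Rpl36, a protein of the large ribosomal subunit, was lowest in wild type 1 and 2 in all 10 of its probe sets, of which 9 held distinct values (chosen after its values were seen). These probe sets may read near-identical copies and are not independent. Of 421 genes with a second probe set above background, 229 had the same highest array in both and 229 the same lowest. Among the 200 most variable genes, 10 had such a probe set, with the same highest array in 10 and the same lowest in 7. The genes of the dimmest decile deviated from their own means by -0.051 and -0.027 in wild type 1 and 2, and those of the brightest decile by 0.018 and 0.026. In wild type 2 the genes of deciles 2 to 4 deviated more than the dimmest, by -0.040. Wild type 6 had a shift the other way, with 0.054 in the dimmest and -0.024 in the brightest decile, so a shift that went along with brightness was not limited to wild type 1 and 2. Whether it came from the embryos or the arrays was not tested. Without wild type 1 and 2, only Hbb-b1 ranged over 2-fold and the median SD was 0.0548.

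A smaller pattern took in genes of pallial neurons, among others. Neurod1 stood at 10.53, 10.37, 10.45, 10.43, 9.95 and 9.64 in wild type 1 to 6, so that wild type 5 and 6 were below all others. Neurod6 stood at 10.42, 10.36, 10.37, 10.68, 9.89 and 10.04, and Neurod2 at 10.18, 9.89, 10.12, 10.31, 9.72 and 9.76. Fezf2, a zinc-finger factor of deep-layer cortical neurons, stood at 8.89, 8.74, 8.83, 8.97, 8.39 and 8.20. Slc17a7, the vesicular glutamate transporter of cortical neurons, stood at 8.47, 8.37, 8.42, 8.58, 8.07 and 8.07. In 11 of the 15 pallial genes, wild type 5 and 6 had both lowest values, against 10.98% of all genes above background. The exceptions were Neurog1, Slc17a6, Reln and Nfib. The mean deviation of the 15 genes from their own means was 0.107, 0.040, 0.105, 0.133, -0.171 and -0.215 in wild type 1 to 6. Its span was 0.349, against 0.041 for all genes. A mean over 15 genes can span more than a mean over 10534 for that reason alone. Other short lists also spanned more, such as the caudal list with 0.348, highest in wild type 2, and GABA and glutamate receptors with 0.241. The pallial list had a median SD of 0.184, more than that of 0.0815 for all genes.

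The eminence lists did not have this pattern. The same mean deviation for the 7 shared subpallial genes was 0.053, 0.032, -0.13, -0.015, 0.029 and 0.031, in which wild type 3 was lowest and wild type 5 and 6 did not stand apart. In none of these 7 genes were wild type 5 and 6 both lowest, and in 1 of 11 lateral, 1 of 16 medial and 1 of 7 caudal genes. The caudal list was still lowest in wild type 6, at -0.155. In the Hedgehog pathway wild type 5 and 6 were both lowest in 4 of 9 genes, 44.4%, with mean deviations of -0.023 and -0.078 and positive values in the other embryos. In the choroid plexus list they were so in 2 of 10. Other lists above the 10.98% of all genes were synaptic vesicle and release with 7 of 28 and radial glia with 3 of 15. Each of these counts includes a gene of the pallial list, Slc17a7 in the synaptic and Pax6 in the radial glia list. Astrocyte genes had 2 of 7 and imprinted genes 5 of 23. Among genes outside the lists that led the second principal component, Nhlh1, a factor of newborn neurons, stood at 9.05, 8.98, 9.44, 9.65, 8.85 and 8.68, and Calb2, the calcium-binding protein calretinin, at 9.64, 9.57, 9.80, 9.63, 9.26 and 9.06. Both had their 2 lowest values in wild type 5 and 6, as did 16 of the 20 leading genes in all. Prps1, which is not in the pallial list, had a loading of -0.774 against -0.775 for Nhlh1. Slc15a2, Tshr and Akr1b10, also not in that list, were among the leading genes with this order. These genes were chosen by their loading on that component, so their order is no further evidence of it. The scores on that component were 0.002, 0.006, -0.032, -0.045, 0.008 and 0.062 in wild type 1 to 6. Wild type 5 thus lay near wild type 1 and 2, while wild type 6 lay opposite wild type 3 and 4. Of the 20 leading genes, 12 were highest in wild type 3 or 4. The third component held nearly as much variation as the second, 11.2% against 12.1%. The dam of each embryo and the dorsal border of each dissection are not given, and their part in the pattern was not tested.

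Globin genes gave another pattern, led by wild type 2. Hbb-b1, an adult beta-globin gene, stood at 9.04, 9.98, 8.64, 8.85, 8.26 and 9.32 in wild type 1 to 6. Its range was 3.30-fold, or 2.08-fold without wild type 1 and 2. Hbb stood at 9.54, 10.37, 9.39, 9.50, 9.20 and 9.70, and its range fell from 2.26-fold to 1.42-fold without wild type 1 and 2. The embryonic Hbe1 ranged over 1.07-fold, between 13.78 and 13.88, close to the highest level on the arrays, in the decile of genes with the smallest median SD, so the order of the embryos there says little. In 12 of the 16 globin and erythroid genes wild type 2 was highest, against 27.4% of all genes above background. Their mean deviation was 0.033, 0.24, -0.16, -0.058, -0.031 and -0.030, a span of 0.402, and without wild type 2 the span was 0.192. A lead of wild type 2 was not particular to these genes. It was highest in 7 of 11 pericyte and smooth muscle genes, with a mean deviation of 0.147, and in 20 of 35 early neuron genes. Endothelial genes were high in wild type 1 and 2, with mean deviations of 0.087 and 0.10, as were many other lists. Among them were GABA and glutamate receptors with 0.060 and 0.128 and glycolysis with 0.060 and 0.094.

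**Figure D5:**
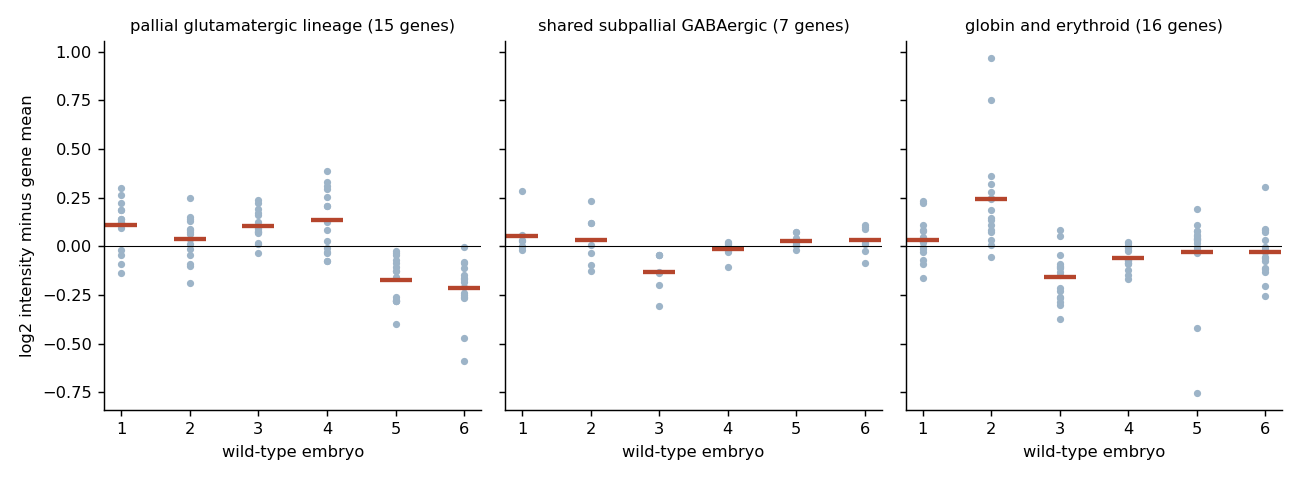
Each dot is the log2 intensity of 1 gene above background minus its mean over the 6 embryos, and each bar is the mean of its list in that embryo. The pallial list is low in wild type 5 and 6 with means of -0.171 and -0.215, the subpallial list is lowest in wild type 3, and the globin and erythroid list is highest in wild type 2 at 0.24.

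Steady and variable classes differed in kind. Of 55 lists with at least 4 measured genes, 37 had a median SD above that of all genes. Histone and high-mobility group genes had a median SD of 0.047, genes of G1 control 0.052, and genes of G2 and M phase and of the medial eminence 0.062 each. Caudal eminence genes had 0.144, microglia and macrophage genes 0.137 and globin and erythroid genes 0.132. Without wild type 1 and 2 the median SD fell to 0.081 for caudal and 0.067 for microglial genes, and was 0.12 for globin and erythroid and 0.212 for pallial genes, against 0.0547 for all genes. Since dim genes varied more than bright ones, these medians are to be read with the levels: histones were bright with a median of 12.24 and microglial genes dim with 7.04, whereas pallial genes, with a median of 9.996, were not dim. Of the cell cycle lists, mean deviations lay between -0.030 and 0.026 for S phase and between -0.022 and 0.020 for G2 and M phase. For G1 control, with 16 genes above background, they lay between -0.051 and 0.037, a span of 0.088. The span of 0.041 for all genes is that of a mean over many more genes.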

How the data were processed

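The values were log2 intensities per probe set and array as deposited; RMA and Partek 6.4 are named, without order or settings, in the submitters' processing notes. For RMA's background correction and normalization, and for the genome build, the settings were not given in the sources used here. If it equalised the arrays, a shift common to all genes would be lost. The platform annotation named the genes, 15279 of 15310 probe sets matched RefSeq by gene number, and 319 rows were identical to another row. The labels gave the group. From the 6 arrays, means, SDs, ranges, ranks, principal components (gene-centred values) and promoter letter counts were computed in Python 3.11.15 with pandas 2.3.3, numpy 2.4.6 and scipy 1.17.1; the component and outlier code was tested on simulated data. No group was compared and no p-value computed. The members and lists were chosen with earlier results of these data known. Genes named were Htt, the 20 brightest, the 20 with the largest and 10 with the smallest SD above background, members of the identity, progenitor, Dlx, Id and sex-linked lists, and per list the 3 highest, the lowest and the most variable; those used for the threshold, the pallial exceptions and others stated in the text were chosen after their values were seen. Alternatives were other scalings, backgrounds, filters and probe set rules and leaving out arrays. Depth does not apply to arrays, whose number limited precision.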

Additional observations from a re-analysis of the deposited data

Results flagged for a closer look

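Of 138 genes named in the report, 6 had 1 embryo whose gap to the next, as a share of the whole range of the 6, was above the 95% critical value of Dixon's test, which chance passes in about 1 group in 20. In each the embryo was the lowest. Sox4 was at 11.78 in wild type 2 and between 11.87 and 11.91 in the others. Map1b was at 13.28 in wild type 1 and between 13.34 and 13.36 in the others. Dlx4 was at 6.82 in wild type 4, close to background, and between 7.09 and 7.22 in the others. Cx3cr1 was at 8.54 in wild type 3 and between 8.81 and 8.93 in the others. Cnp was at 9.34 and Ntrk2 at 10.90 in wild type 6, against lowest values of 9.44 and 10.95 in the others. Over all genes above background, 555, or 5.27%, passed the same limit, most often through wild type 2, which was highest in 99 and lowest in 100 of them. None of 37 gene list means and 6 array measures passed it.

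Probe sets without an annotated gene carried signal that no result above used. Of these, 7598, or 55.9%, lay above the background threshold, the brightest at 14.01 ± 0.034 (SD, n = 6), above Actb.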

How the results depend on the processing

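The number of genes above background lay between 9773 and 11512 under all alternatives, among them the 99th percentile of olfactory receptors and the 95th of vomeronasal and taste receptors. The number of genes ranging over 2-fold was 8 without wild type 2, between 8 and 15 when each array was left out, and 1 without wild type 1 and 2 together, a setting chosen after seeing the data. The span of the globin and erythroid list was 0.192 without wild type 2, between 0.192 and 0.402 when each array was left out, and 0.129 without wild type 1 and 2. These 2 results moved because the arrays left out held the extreme values. The other main results kept within 1.5 times, or within 1 SD over embryos, under every alternative run. The median SD lay between 0.0548 and 0.0907 and the share of the first component between 41.9% and 67.3%. The span of the pallial list lay between 0.304 and 0.358. That span rests on wild type 5 and 6, which were not left out together, so these alternatives could not have removed it. With the 99th percentile the Hox list had 5 genes above background, the choroid plexus list 5, the liver, muscle, skin and gut list 4 and the Dlx list 2; with the 95th of vomeronasal and taste receptors the liver, muscle, skin and gut list had 16, the choroid plexus list 15 and the Hox list 12. Of 138 gene levels, 8 moved by over 1 SD with the mean of all probe sets and none under the other settings. Of the 20 largest SDs, 17 fell by over 1.5 times without wild type 1 and 2, as for Nqo2 from 0.627 to 0.398. No paired analysis was possible because no groups were compared. Signals near background limit what can be said of dim genes.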
